A study of Mus musculus with 87 samples.

Results

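The Myc, Max and Mxd network was described here through 8 genes, Myc, Mycn, Max, Mnt, Mxd1, Mxd3, Mxd4 and Mxi1, chosen by name as the classical members of the network and not for their values. All 8 were among the 37991 genes of the mouse liver table, and all 8 exceeded the detection level in at least 1 library, as did 15396 genes in all. Myc, Max, Mnt, Mxd4 and Mxi1 exceeded it in all 80 libraries and Mxd1 in 78, whereas Mycn did so in 10 libraries and Mxd3 in 17. The detection level was -1.5 on the log2 scale of RPKM (reads scaled to exon length and to the mapped reads of the library), which is 0.354 RPKM.

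The products of these genes are basic helix-loop-helix leucine-zipper proteins that share a partner. MYC and its relative MYCN bind the E-box of DNA as heterodimers with MAX and act mainly as activators of genes for cell growth, ribosome production and division. MNT, MXD1, MXD3, MXD4 and MXI1 also bind the same sequence as heterodimers with MAX but recruit SIN3 and histone deacetylases, so they oppose MYC. Myc itself is a classical early gene of the regenerating liver.

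RefSeq promoter windows (assembly GRCm38.p6) from 250 bases before to 50 bases after the start were matched by symbol for 7 members and were searched on both strands for the E-box CACGTG, for TTTGAA, the core of the cell-cycle homology region found in promoters of mitotic genes, and for GCGGGAA, an E2F-type element. Myc had no window. This assembly is not the build of the table (mm9), so its positions differ from the gene positions given with each member. The stretches of the 4 members with an E-box, the site that the family binds, or an E2F-type element, a site of cell-cycle regulators, are shown with the match in capitals and the gene's strand written 5′ to 3′. They end at the base before the start, except in Max, where the E-box runs from 3 bases before the start to 3 bases after it.

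Max (chr12:76962246-76962348, minus strand): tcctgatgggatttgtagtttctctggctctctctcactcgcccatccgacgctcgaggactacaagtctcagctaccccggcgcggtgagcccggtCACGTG
Mnt (chr11:74830781-74830923, plus strand): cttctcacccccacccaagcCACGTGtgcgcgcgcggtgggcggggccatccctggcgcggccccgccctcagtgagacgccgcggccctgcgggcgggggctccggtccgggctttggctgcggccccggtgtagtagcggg
Mxd4 (chr5:34187711-34187949, minus strand): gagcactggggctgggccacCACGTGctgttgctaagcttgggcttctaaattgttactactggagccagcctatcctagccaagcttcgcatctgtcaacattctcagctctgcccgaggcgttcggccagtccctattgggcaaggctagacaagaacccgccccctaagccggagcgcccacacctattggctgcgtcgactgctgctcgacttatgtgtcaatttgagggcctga
Mxd3 (chr13:55329732-55329887, minus strand): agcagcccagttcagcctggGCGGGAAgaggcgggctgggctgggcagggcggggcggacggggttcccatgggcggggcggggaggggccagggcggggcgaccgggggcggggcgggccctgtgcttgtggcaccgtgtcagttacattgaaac

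The E-box was found in the windows of 3 of the 7 members (Max, Mnt and Mxd4), against 7.15% of all 32851 windows of this length. Of the other 2 motifs, GCGGGAA was found in Mxd3 alone among the members and in 4.60% of all windows, and TTTGAA in Mycn alone, on the opposite strand with its first base 14 bases before the start, and in 17.9% of all windows. None of the 3 motifs overlapped another, and none was found in Mxd1 or in the 3 windows of Mxi1. A match is a description of the letters only.

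RNA came from whole livers of individual male C57BL/6 mice, which had been kept on a fixed light and feeding cycle. The age given is 12 to 14 weeks, which the study states for the time of surgery, so X1W and X4W mice were older at collection. Operations were done at Zeitgeber time (ZT, hours after lights on) 2 under isoflurane. The livers were collected in separate periods, known by group but not by liver: C0 from all of them, C4 from the third alone, S1, S4, X1, X4, X10, X20 and X36 from the first and the second, S10, S20, C4W and X4W from the second, and S48, X28, X44, X48, X72 and X1W from the first. In S4, X4 or X28 against C4, surgery and period therefore cannot be told apart, and C0 is the control that spans the periods, at another hour. X10 and X20 include livers of the first period, which S10 and S20 lack. Of 6 labelled X4 livers 3 were analysed, and whether they cover the same periods as S4 is not known. In X4, X10 and X20 against sham, the operations may thus also differ in period. Partial hepatectomy (PH, groups X) removes most of the liver, and the sham operation (groups S) opens the abdomen and leaves the liver whole. Unoperated livers comprised C0 (ZT2, 9 livers), C4 (ZT6, 3) and C4W (2). Sham livers were collected at 1 h (S1, 6 livers), 4 h (S4, 5), 10 h (S10, 3), 20 h (S20, 3) and 48 h (S48, 3), and PH livers at 1 h (X1, 6), 4 h (X4, 3), 10 h (X10, 6), 20 h (X20, 6), 28 h (X28, 3), 36 h (X36, 6), 44 h (X44, 3), 48 h (X48, 5), 72 h (X72, 3), 1 week (X1W, 3) and 4 weeks (X4W, 2). The labels give no other genotype, all groups shared the light and feeding cycle, and unoperated livers at the hours of 10, 20, 36 and 44 h (ZT12, ZT22, ZT14 and ZT22) were not analysed here, so that at those times surgery and the hour of the day cannot be told apart in a comparison with C0.

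Estimated depth ran from 12.2 to 49.0 M mapped reads per library, with a median of 26.6 M, and no pair of libraries was identical. The 5 hepatocyte markers fixed for the tissue check (Alb, Apoa1, Ttr, Serpina1c and Cps1) summed to between 25630 and 58760 RPKM in every liver. The log2 value of the median gene shifted between groups, by 0.27 in X48 against S48, and by -0.22 in S4 and -0.26 in X4 against C4. Against C0 it shifted by 0.16, 0.23, 0.24, 0.21 and 0.12 in X36, X44, X48, X72 and X1W, and by -0.12, -0.11 and 0.11 in S1, X1 and X20. Calls gained with every library set to the same median value are listed below, and most calls lost are given with the member. In whole liver, fewer cells of a type and less RNA per cell cannot be told apart.

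**Figure D1:**
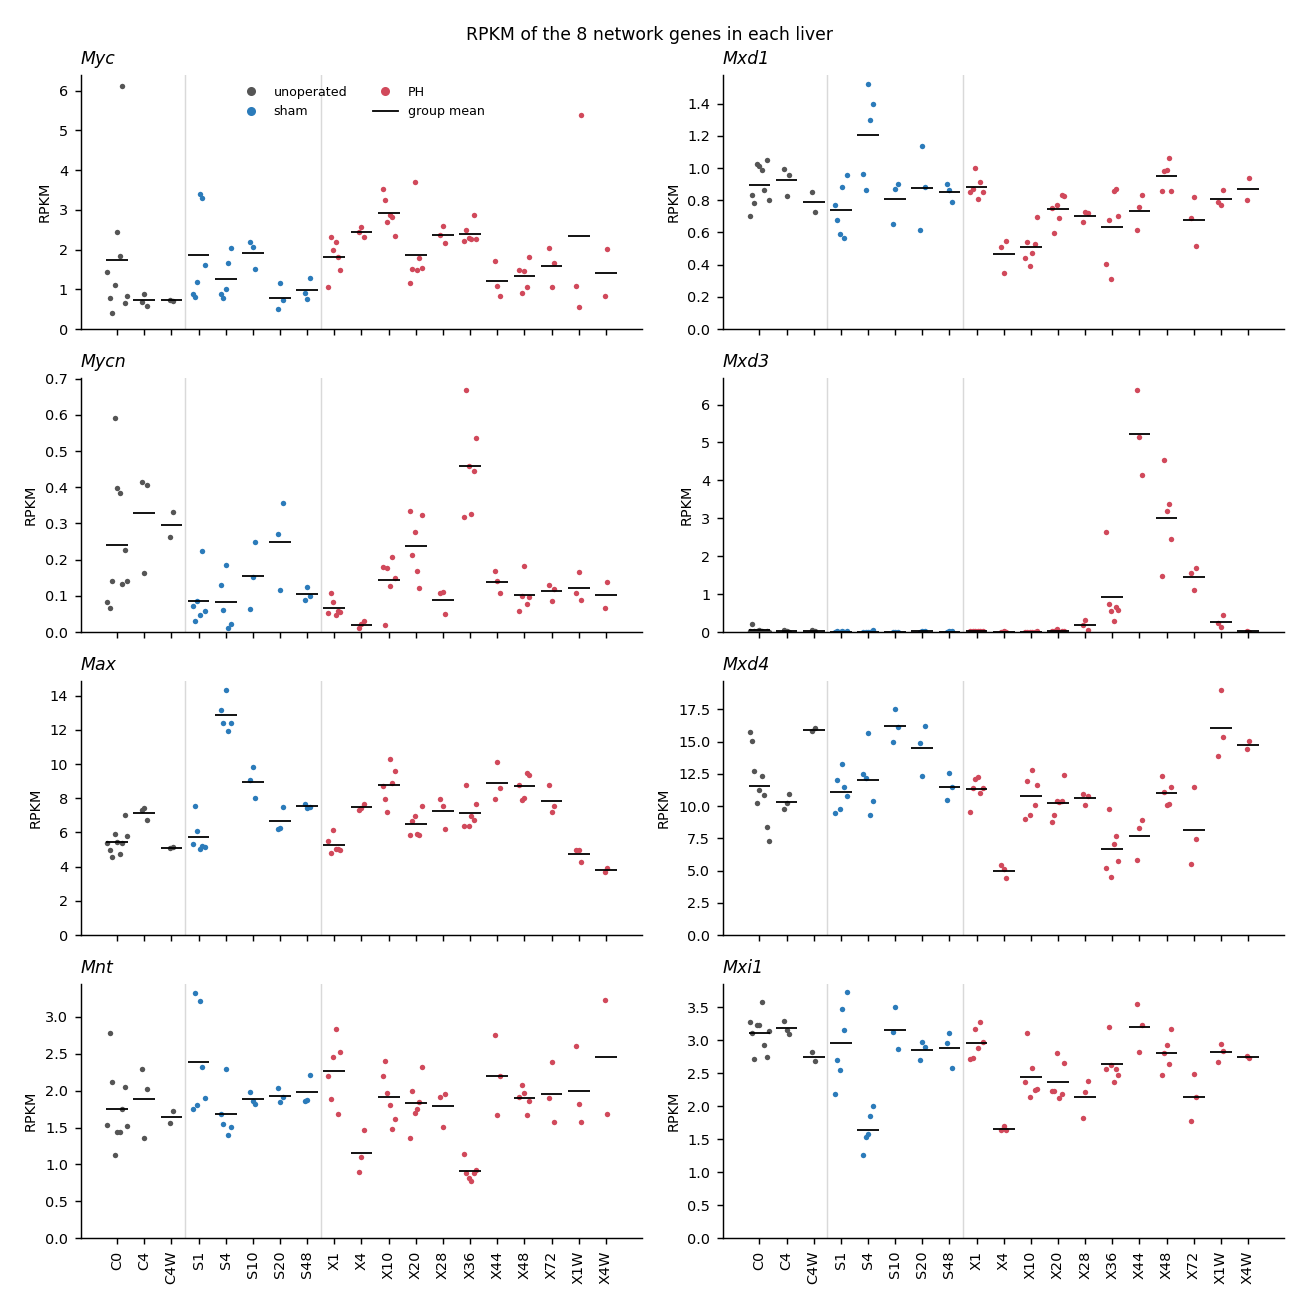
RPKM (linear axes from 0) of the 8 network genes in each of the 80 livers by group, unoperated in grey, sham in blue and PH in red, with a line at the group mean. Mxd3 lies near 0 until 20 h after PH and reaches 4.14 to 6.39 RPKM in X44, Max is highest in S4 (11.9 to 14.3 RPKM), and Mxd4 is lowest in X4 (4.43 to 5.45 RPKM).

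Changes were tested on log2(RPKM + 0.25) with limma in a single fit over all 19 groups, and a member was called where the Benjamini-Hochberg adjusted p over the 15396 genes was below 0.05 and the log2 change exceeded 0.5 in size. Of the 176 pairs of a member and a comparison, 35 were called, 18 higher and 17 lower. With every library set to the same median value, 41 pairs were called, 11 higher and 30 lower, of which 24 were among the 35. No direction reversed. The other 17 were gained. Mxd1 gained calls against C0 in X36, X44 and X72 (-0.75, -0.69 and -0.67). Mycn gained them in X28, X44, X48, X72 and X1W (-0.51, -0.73, -0.86, -0.71 and -0.53). Mxi1 gained them in X10, X20, X28, X36, X48 and X72 (-0.52, -0.57, -0.54, -0.56, -0.59 and -0.85). Mnt did so in S1 (0.52), and Mxd4 against sham in X20 (-0.57) and X48 (-0.51). A total of 13 of the 35 calls held in every alternative processing and every fit without 1 library.

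The comparison of PH with sham livers asks what the resection adds to the surgery. It called 5 of 40 pairs, 4 of them lower after PH. At 1 h no member was called in X1 against S1, nor had any an unadjusted p below 0.05 (limma), where 0.650% of all genes were called. At 4 h Max, Mxd1 and Mxd4 were lower in X4 than in S4 (3 of 8, background 8.64%). At 10 h Mxd4 was lower in X10 than in S10 (1 of 8, background 7.02%), and at 20 h no member was called by limma, 3 of 8 having an unadjusted p below 0.05 (background 7.11%). At 48 h Mxd3 was higher in X48 than in S48 (1 of 8, background 27.2%). The PH-sham difference itself changed over the 5 times in the limma F test for Max, Mxd1, Mxd3 and Mxd4 (adjusted p of 1.75e-05, 5.54e-06, 2.11e-16 and 0.000112), 4 of 8 members against 41.4% of all genes; for Myc, Mycn, Mnt and Mxi1 the adjusted p was 0.556, 0.931, 0.512 and 0.114.

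**Figure D2:**
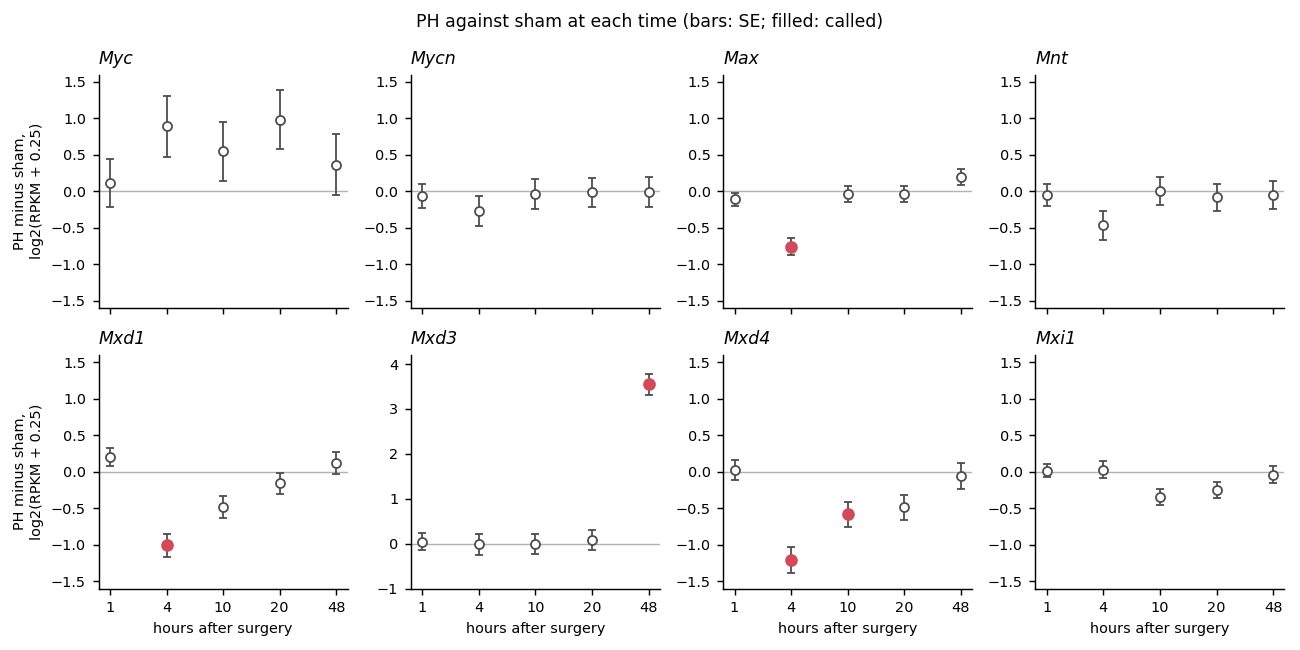
Difference between PH and sham livers on log2(RPKM + 0.25) for each member at the 5 times sampled after both operations (axis in hours), with bars of 1 SE and filled points for calls (Mxd3 has its own axis range). At 4 h Max, Mxd1 and Mxd4 are lower in PH than in sham livers by 0.76, 1.01 and 1.21, and at 48 h Mxd3 is higher by 3.55.

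Sham against unoperated livers gives the response to the surgery without resection, with 5 of 40 pairs called. No member was called by limma in S1, S20 or S48 against C0, with 2 of 8 at an unadjusted p below 0.05 in each, where 7.77%, 12.1% and 8.88% of all genes were called. In S4 against C4, at the same hour, 3 members were called, Max higher and Mycn and Mxi1 lower (background 43.3%), and in S10 against C0 Max and Mxd4 were higher (2 of 8, background 29.1%).

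Against unoperated livers, 25 of 88 pairs were called in PH livers. Of the 8 members, 1 was called in X1 (background 13.5%), 6 in X4 against C4 (45.6%), 3 in X10 (36.4%) and none by limma in X20 (24.1%), where 2 had an unadjusted p below 0.05. Later, 1 was called in X28 (24.9%), 5 in X36 (35.0%), 3 in X44 (39.2%), 2 in X48 (38.1%), 3 in X72 (33.2%) and 1 in X1W (16.9%). In X4W against C4W none was called by limma, 2 having an unadjusted p below 0.05 (background 0.0650%), and unoperated livers 4 h apart (C4 against C0) gave none, with 1 at an unadjusted p below 0.05 (background 7.89%). Shares of 6 of 8 in X4 and 5 of 8 in X36 were the ones above their background by most, and 3 of 8 in X10, X44 and X72 were near it.

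**Figure D3:**
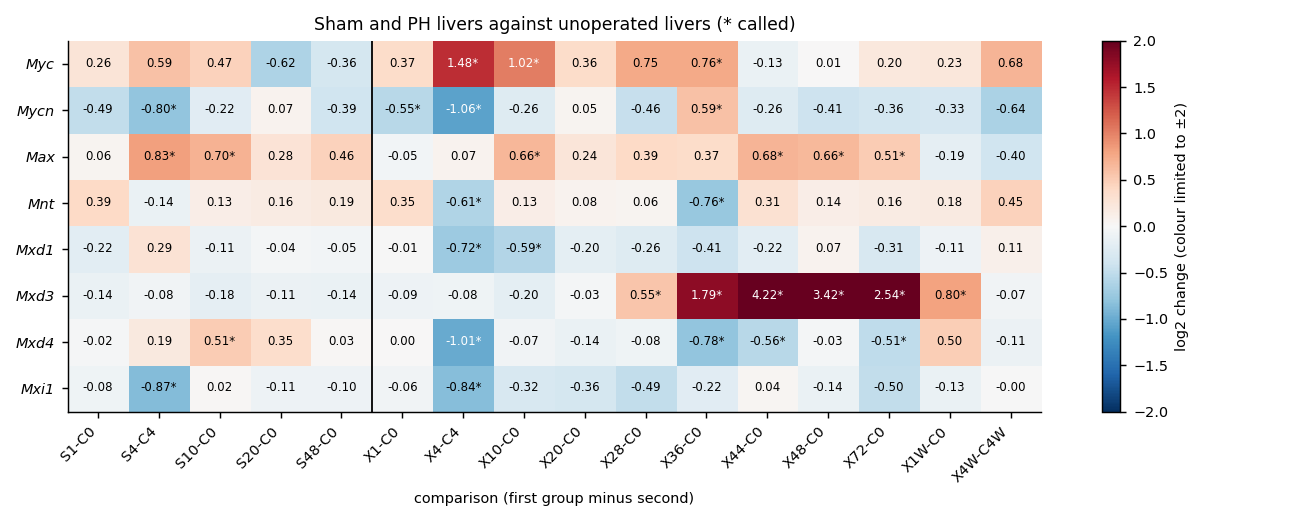
Change on log2(RPKM + 0.25) of each member in sham livers (left of the line) and PH livers (right) against the unoperated group named after the hyphen, with calls starred and the colour limited to 2 in size. Myc is higher by 1.48 in X4, Max by 0.83 in S4, and Mxd3 by 4.22 in X44.

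Myc (ENSMUSG00000022346, chr15:61816946-61821929 of mm9, plus strand), the founding activator of the family, was at 0.690, 0.892 and 0.584 RPKM in the C4 livers and at 2.43, 2.56 and 2.31 RPKM in the X4 livers. Every X4 liver lay above every C4 liver, a change of 1.48 (SE 0.47, limma adjusted p = 0.0055). Against C0 the change was 0.79 and not called. The 5 S4 livers were at 0.878, 0.776, 1.01, 1.65 and 2.04 RPKM, all below the X4 livers, but the difference of X4 from S4 was 0.89 (SE 0.42, limma adjusted p = 0.155) and was not called. Against S4 replicates 4 and 5 only, the livers that share replicate numbers with X4, it was 0.36.

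Myc levels were highest on average in X10, from 2.34 to 3.54 RPKM with a median of 2.85, against 2.18, 2.07 and 1.5 RPKM in S10. The X10 livers all exceeded the S10 livers, by 0.55 (SE 0.40, limma adjusted p = 0.433), which was not called. Against C0 the change in X10 was 1.02 (SE 0.30, limma adjusted p = 0.00261). C0 itself ran from 0.395 to 6.12 RPKM with a median of 1.10, its highest liver, replicate 7, lying above every other liver of the series, and with C0 replicates 7 to 9 as the control the change in X10 was 0.78 and lost its call.

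At later times Myc was at 1.17 to 3.69 RPKM in X20 (median 1.52) against 0.502, 1.16 and 0.720 in S20, groups that did not overlap (0.98, SE 0.40, limma adjusted p = 0.0967, not called). X36 livers held 2.21 to 2.88 RPKM (median 2.27) and were higher than C0 by 0.76 (SE 0.30, limma adjusted p = 0.0243), a call lost at the same median (0.42), against C0 replicates 7 to 9 (0.52), and without C0 replicate 3 (0.61) or 8 (0.67). The 3 X28 livers, at 2.36, 2.59 and 2.16 RPKM, were 0.75 above C0 (SE 0.38, limma adjusted p = 0.108); against C4, which was collected at their hour, the difference was 1.44 and was called. The values of X10, X28 and X36 all lay inside the wide C0 range, and so did those at 44 h (1.71, 1.09 and 0.843 RPKM) and 48 h (0.904 to 1.82 RPKM), and X1W included a single liver at 5.39 RPKM beside 1.08 and 0.561.

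Mycn (ENSMUSG00000037169, chr12:12942902-12948720 of mm9, minus strand), which is known for its part in embryonic and neural growth, exceeded the detection level in only 10 libraries. It ran from 0.00993 RPKM in an S4 liver to 0.670 RPKM in an X36 liver, or an estimated 1 to 64.9 reads a library. In X4 it was at 0.0101, 0.0215 and 0.0302 RPKM, below all C4 livers (0.414, 0.164 and 0.407). The change of -1.06 (SE 0.23, limma adjusted p = 8.1e-05) rests on 1 to 3 reads in each X4 library and was -0.37 and not called with a pseudocount of 1 RPKM. In S4 it was at 0.130, 0.0611, 0.187, 0.00993 and 0.0223 RPKM, which overlapped C4 through 1 liver on either side (-0.80, SE 0.21, limma adjusted p = 0.0008), a call lost with a pseudocount of 1 RPKM (-0.29).

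The X36 livers had 0.318 to 0.670 RPKM of Mycn (median 0.452), the highest group mean of the series, against 0.0657 to 0.592 (median 0.142) in C0. Mycn was higher in X36 by 0.59 (SE 0.15, limma adjusted p = 0.000514), with overlap, and the change was 0.25 and not called at the same median, and 0.24 and not called with a pseudocount of 1 RPKM. In X28 Mycn was at 0.107, 0.111 and 0.0506 RPKM, a difference of -0.46 from C0 (SE 0.19, limma adjusted p = 0.0454, under the size limit) and of -0.74, which was called, from C4. A fall of 0.55 in X1 (SE 0.15, limma adjusted p = 0.00233) was lost without C0 replicate 4, 5 or 6, at the same median (-0.47), with a pseudocount of 1 RPKM (-0.20) and with C0 replicates 7 to 9 as the control (-0.39). C0 replicates 4 to 6 held the 3 highest C0 values (0.592, 0.397 and 0.384).

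Max (ENSMUSG00000059436, chr12:78038256-78063235 of mm9, minus strand), the partner that the others share, differed between the operations at 4 h. The S4 livers were at 13.2, 12.4, 14.3, 11.9 and 12.4 RPKM, the X4 livers at 7.33, 7.43 and 7.70, and the C4 livers at 7.29, 7.43 and 6.70. S4 thus lay apart from every other group, whereas X4 and C4 overlapped. Max was higher in S4 than in C4 by 0.83 (SE 0.11, limma adjusted p = 4.5e-09) and lower in X4 than in S4 by 0.76 (SE 0.11, limma adjusted p = 8.8e-07), while X4 differed from C4 by 0.07 (SE 0.12, limma adjusted p = 0.68).

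Both calls held in every alternative and without any 1 library, and against S4 replicates 4 and 5 alone the difference of X4 was -0.69. The table also holds 4 columns headed as S4 that match no labelled sample and were not used, and X4 replicates 1 to 3 were not analysed here. Whether those columns belong to S4 is not known. Set against C0 instead of C4, X4 was higher by 0.45 and S4 by 1.20. S4 was the top group of Max by a gap that no liver bridged; of the 18 neighbouring pairs in the order of group means, 15 overlapped, and the other gaps were at the low end, where C4W stood apart from X1W and X1W from X4W.

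By 10 h the operations no longer differed in Max beyond the spread, with 7.21 to 10.3 RPKM (median 8.81) in X10 and 9.08, 9.85 and 8.00 in S10, a difference of -0.03 (95% interval from -0.25 to 0.18). Both groups were above all 9 C0 livers (4.55 to 7.02 RPKM, median 5.40), by 0.66 in X10 (SE 0.08, limma adjusted p = 9.7e-11) and 0.70 in S10 (SE 0.10, limma adjusted p = 6.2e-08). With every library at the same median these changes were 0.46 and 0.50 and fell under the size limit.

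Later PH livers were also above all C0 livers in Max, at 7.97, 10.1 and 8.59 RPKM in X44, 7.92 to 9.46 in X48 and 8.78, 7.18 and 7.54 in X72. The changes were 0.68, 0.66 and 0.51, with limma adjusted p of 4.2e-08, 7.5e-10 and 2.7e-05. At the same median they were 0.21, 0.20 and 0.15, and none was called. The X72 call was also lost against C0 replicates 7 to 9 (0.36) and without C0 replicate 2 (0.49), 3 (0.47) or 6 (0.48) or X72 replicate 1 (0.42). S48, at 7.69, 7.45 and 7.5 RPKM, was 0.46 above C0 (SE 0.10, limma adjusted p = 0.000911) and under the size limit, and X48 differed from it by 0.20 (SE 0.11, limma adjusted p = 0.147). The livers of X1W (4.97, 4.97 and 4.3) and X4W (3.70 and 3.93) were within or under the C0 range.

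Mnt (ENSMUSG00000000282, chr11:74644422-74659227 of mm9, plus strand), a broadly expressed antagonist, was lowest in X36, at 0.776 to 1.14 RPKM with a median of 0.886. C0 ran from 1.12 to 2.78 RPKM with a median of 1.53, so the groups touched through a single liver on either side. The change was -0.76 (SE 0.14, limma adjusted p = 2.7e-06) and held in every alternative and without any 1 library, reaching -1.11 at the same median. X36 was the only group collected at ZT14, so the stage of regeneration and the hour cannot be told apart.

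In X4 Mnt was at 0.892, 1.10 and 1.46 RPKM against 2.29, 1.36 and 2.03 in C4, a fall of 0.61 (SE 0.22, limma adjusted p = 0.0133) that was lost in 6 of 13 alternatives and without C4 replicate 1 or X4 replicate 4 (-0.47 in each). The groups overlapped. X4 differed from S4 (1.39 to 2.30 RPKM) by -0.47 (SE 0.19, limma adjusted p = 0.0942).

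Mxd1 (ENSMUSG00000001156, chr6:86597038-86619153 of mm9, minus strand), first described as MAD1 and known to rise as myeloid and other cells differentiate, was at 0.510, 0.348 and 0.547 RPKM in X4. In S4 it was at 0.962, 0.862, 1.52, 1.30 and 1.40 RPKM, and in C4 at 0.996, 0.828 and 0.957. All X4 livers lay below all livers of both groups. The difference from S4 was -1.01 (SE 0.15, limma adjusted p = 1.9e-06) and held in every alternative that tested Mxd1 and without any 1 library, and that from C4 was -0.72 (SE 0.17, limma adjusted p = 0.000293), which was not called at the same median (-0.47) or with a pseudocount of 1 RPKM (-0.39).

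Neutrophil markers moved with Mxd1 among the S4 livers. The 7 markers (S100a8, S100a9, Mpo, Elane, Retnlg, Csf3r and Cxcr2) summed to 9.92, 7.19, 43.1, 21.5 and 29.2 RPKM in the 5 S4 livers and to 6.26, 4.58 and 9.67 in the X4 livers, mostly from S100a8 and S100a9; Mpo had a median of 0 in both groups. In X4 against S4 1 of the 6 tested markers was lower (Cxcr2, -0.65, limma adjusted p = 0.0442) and none higher. The median change was -0.84, against -0.04 for all genes, of which 5.48% were lower. The S4 livers with sums of 9.92 and 7.19, the first just above and the second within the X4 range, had 0.962 and 0.862 RPKM of Mxd1, above all X4 livers. The largest sum of the series, 47.9 RPKM, was in C0 replicate 8, which had 1.05 RPKM of Mxd1. The part of neutrophils in the result was not tested beyond these values.

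At 10 h Mxd1 was at 0.394 to 0.695 RPKM in X10 (median 0.501), below all 9 C0 livers (0.705 to 1.05, median 0.866), a fall of 0.59 (SE 0.11, limma adjusted p = 4.8e-06). With a pseudocount of 1 RPKM it was -0.33 and not called. S10 livers had 0.655, 0.873 and 0.901 RPKM, and X10 differed from them by -0.48 (SE 0.15, limma adjusted p = 0.0246), just under the size limit. It passed that limit with a pseudocount of 0.01 RPKM (-0.66), with replicates 1 to 3 of both groups only (-0.58), and without S10 replicate 1 (-0.59) or X10 replicate 6 (-0.54). At 48 h the values of X48 (0.856 to 1.06) and S48 (0.903, 0.865 and 0.789) overlapped.

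**Figure D4:**
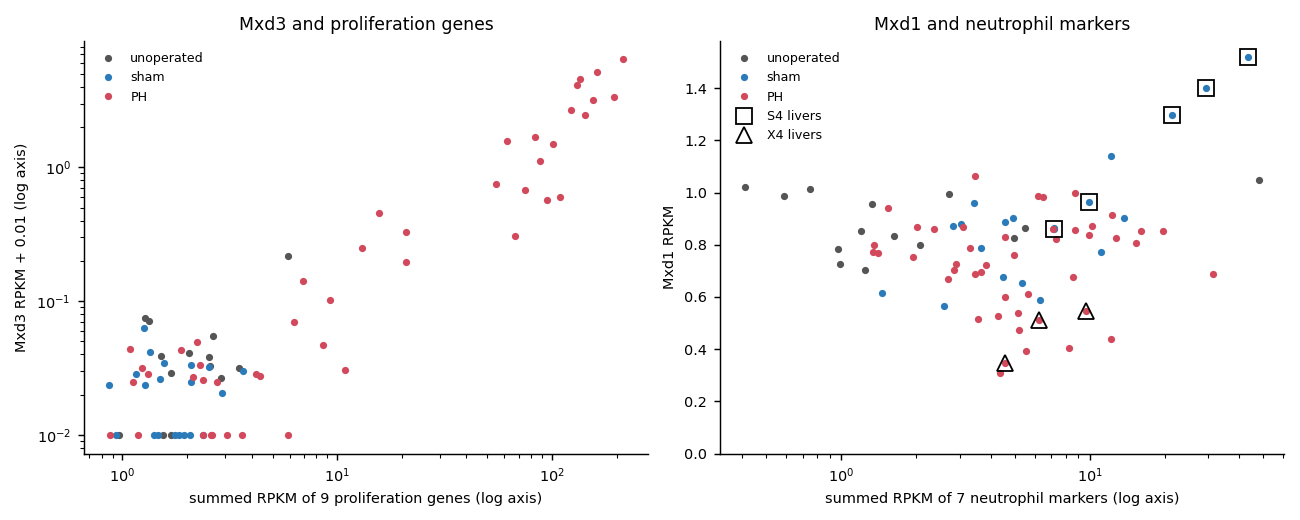
Left, Mxd3 (RPKM + 0.01, log axis) against the summed RPKM of 9 proliferation genes (log axis) in each liver; right, Mxd1 (RPKM) against the summed RPKM of 7 neutrophil markers (log axis), with S4 livers boxed and X4 livers in triangles. Mxd3 is above 0.25 RPKM only in livers with proliferation sums of at least 15.7 RPKM, and the 3 S4 livers with the highest Mxd1 (1.30 to 1.52 RPKM) have neutrophil sums of 21.5 to 43.1 RPKM.

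Mxd3 (ENSMUSG00000021485, chr13:55426529-55431119 of mm9, minus strand), the member known to be expressed in S phase of dividing cells, was listed at 0 in 19 of the 80 livers and was at most 0.208 RPKM in unoperated livers, at most 0.0529 in sham livers and at most 0.0918 in PH livers up to 20 h. It was at 0.187, 0.317 and 0.0600 RPKM in X28, and at 0.298 to 2.65 RPKM (median 0.632) in X36. The highest levels came in X44, at 6.39, 5.15 and 4.14 RPKM, or 217 to 382 reads a library. X48 followed with 1.49, 4.54, 3.20, 3.37 and 2.46 RPKM and X72 with 1.56, 1.11 and 1.68.

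S48 livers had 0, 0.0221 and 0.0199 RPKM of Mxd3, at most 1 read each, so every X48 liver lay far above them. The difference on log2(RPKM + 0.25), which understates a change from so low a level, was 3.55 (SE 0.23, limma adjusted p = 5.7e-21) and held in every alternative that tested Mxd3 and without any 1 library. Its size depends on the pseudocount, from 1.94 at 1 RPKM to 7.06 at 0.01 RPKM. Against C0 the changes were 1.79 in X36, 4.22 in X44, 3.42 in X48 and 2.54 in X72, with limma adjusted p from 5.7e-27 to 1.7e-14, and none of these groups overlapped C0.

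In X28 the Mxd3 change was 0.55 (SE 0.21, limma adjusted p = 0.0323) and was lost without X28 replicate 1 (0.53) or 2 (0.35), with C0 replicates 1 to 6 as the control (0.47) and with a pseudocount of 1 RPKM (0.18). A week after PH, X1W livers were at 0.238, 0.131 and 0.445 RPKM, a change of 0.80 (SE 0.21, limma adjusted p = 0.0025) that overlapped C0 through C0 replicate 2 (0.208 RPKM) and was 0.57 and not called without X1W replicate 3. At 4 weeks Mxd3 was at 0.0176 and 0.0148 RPKM.

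The proliferation genes (Mki67, Top2a, Ccna2, Ccnb1, Ccne2, Mcm2, Mcm5, Cdk1 and Plk1) stood high in the same livers. Their sum was 131 to 213 RPKM in X44, 101 to 195 in X48 and 1.94 to 3.66 in S48, and in C0 it had a median of 1.68, with its highest value, 5.90 RPKM, in replicate 2, the C0 liver with the most Mxd3. All 9 were higher in X48 than in S48 (median change 5.25, against 0.27 for all genes, of which 24.5% were higher). From X28 to X1W 9 of 9 were higher than in C0, where 12.4% to 30.8% of all genes were higher. At 20 h 5 of the 9 were already higher in X20 than in S20, as were 4.49% of all genes, when Mxd3 was at 0 to 0.0918 RPKM. Their part in the Mxd3 result was not tested.

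Mxd4 (ENSMUSG00000037235, chr5:34516536-34530369 of mm9, minus strand), a repressor linked to resting and differentiated cells, was the most abundant antagonist per length, with a median of 11.3 RPKM in C0. In X4 it was at 5.45, 5.13 and 4.43 RPKM, against 12.5, 12.2, 15.7, 9.29 and 10.4 in S4 and 9.78, 10.3 and 10.9 in C4. The X4 livers lay below every liver of both groups. Mxd4 was lower than in S4 by 1.21 (a change of -1.21, SE 0.18, limma adjusted p = 1.0e-06) and than in C4 by 1.01 (a change of -1.01, SE 0.20, limma adjusted p = 1.6e-05; -1.13 against C0), and both calls held in every alternative and without any 1 library.

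At 10 h the X10 livers had 8.97 to 12.8 RPKM of Mxd4 (median 10.9) and the S10 livers 15.0, 17.5 and 16.1, groups without overlap. The difference of -0.58 (SE 0.17, limma adjusted p = 0.0172) was not called without S10 replicate 2 (-0.53) or replicate 3 (-0.59). S10 was 0.51 above C0 (SE 0.16, limma adjusted p = 0.00699) with overlap, which was lost in 6 of 12 alternatives and without C0 replicate 4, 8 or 9 or S10 replicate 2, and X10 differed from C0 by -0.07 (SE 0.13). At 20 h the difference of X20 (8.74 to 12.4, median 10.4) from S20 (14.9, 12.3 and 16.2) was -0.49 (SE 0.17, limma adjusted p = 0.0498), just under the size limit, and the groups overlapped. At the same median it was -0.57 and was called.

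Later falls of Mxd4 against C0 varied in size with the control livers and the scaling. C0 replicates 1 to 3 (15.8, 15.1 and 12.7 RPKM) lay above the other 6 (7.33 to 12.3). X36 livers were at 4.53 to 9.79 RPKM (median 6.37), a fall of 0.78 (SE 0.13, limma adjusted p = 3.2e-07), and the change was -0.43 and not called with C0 replicates 7 to 9 as the control. X44 (5.82, 8.32 and 8.89) and X72 (5.54, 11.5 and 7.44) were lower by 0.56 and 0.51 on the log2 scale (changes of -0.56 and -0.51, limma adjusted p of 0.00252 and 0.00617). With that control these changes were -0.21 and -0.16, without X44 replicate 1 or C0 replicate 1 the first was -0.38 and -0.50, and without X72 replicate 1 the second was -0.28, all without a call. The X72 change was also not called without X72 replicate 3 (-0.48) or without C0 replicate 1 (-0.45), 2 (-0.46), 3 (-0.49) or 6 (-0.50). In the other direction, the changes in X36, X44 and X72 were larger and called with C0 replicates 1 to 6 as the control (-0.96, -0.74 and -0.69) and at the same median (-1.12, -1.03 and -0.87). At 48 h Mxd4 was at 10.1 to 12.3 RPKM in X48 and 10.5, 12.5 and 11.5 in S48, a difference of -0.06 (95% interval from -0.41 to 0.29), which was -0.51 and called at the same median.

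Mxi1 (ENSMUSG00000025025, chr19:53384996-53450300 of mm9, plus strand), the antagonist also called MXD2, was called lower than in C4 after both operations at 4 h, as Mycn was. It was at 1.26, 1.53, 1.58, 1.85 and 2.01 RPKM in S4, 1.65, 1.70 and 1.64 in X4, and 3.30, 3.16 and 3.10 in C4. All operated livers lay below all C4 livers, by -0.87 in S4 (SE 0.12, limma adjusted p = 2.6e-09) and -0.84 in X4 (SE 0.13, limma adjusted p = 9.7e-08), and both calls held in every alternative and without any 1 library, with changes of -0.84 and -0.81 against C0. These comparisons share the C4 livers, which came from another period. X4 differed from S4 by 0.03, with a 95% interval from -0.20 to 0.25.

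S10 livers had returned to 3.12, 3.50 and 2.87 RPKM of Mxi1, within the C0 range of 2.71 to 3.58. X10 livers were at 2.14 to 3.11 RPKM (median 2.32), X28 at 1.82, 2.22 and 2.38 and X72 at 1.78, 2.50 and 2.15, the last 2 groups below every C0 liver. Their changes against C0 were -0.32, -0.49 and -0.50 with limma adjusted p of 0.000658, 0.000103 and 5.9e-05, each under the size limit; at the same median they were -0.52, -0.54 and -0.85 and were called. X28 against C4 gave -0.53, also called.

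Summed over Mnt, Mxd1, Mxd3, Mxd4 and Mxi1, antagonist RPKM per RPKM of Max had a mean of 3.26 ± 0.85 (SD, n = 9) in C0 and 2.30 ± 0.22 (n = 3) in C4. It was 1.28 ± 0.12 (n = 5) in S4 and 1.11 ± 0.05 (n = 3) in X4, the lowest means of the series, and all S4 and X4 livers (1.05 to 1.47) lay below all C4 livers (2.11 to 2.54). Of the 6 genes in this ratio, Max and Mxi1 were called in S4 against C4, and Mnt, Mxd1, Mxd4 and Mxi1 in X4 against C4. The highest means were in X1W (4.65 ± 0.51, n = 3) and X4W (5.47 ± 0.37, n = 2), beside 4.13 ± 0.04 (n = 2) in C4W.

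Antagonist RPKM per RPKM of Myc and Mycn together was 3.22 to 3.48 in the X4 livers and 14.8 to 17.2 in the C4 livers, without overlap. In the S4 livers it was 7.46 to 19.2. The C0 livers, at 2.625 to 34.25, enclosed all X4 values. The ratio was also low in X10 (3.76 to 6.498) and X36 (3.225 to 4.843), and was 10.2 to 20.3 in X44. Mxd4 made up 66.2% of antagonist RPKM in the median C0 liver and 30.4 to 46.1% in the X44 livers, where Mxd3 made up 21.4 to 33.4%, against at most 0.944% in C0.

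**Figure D5:**
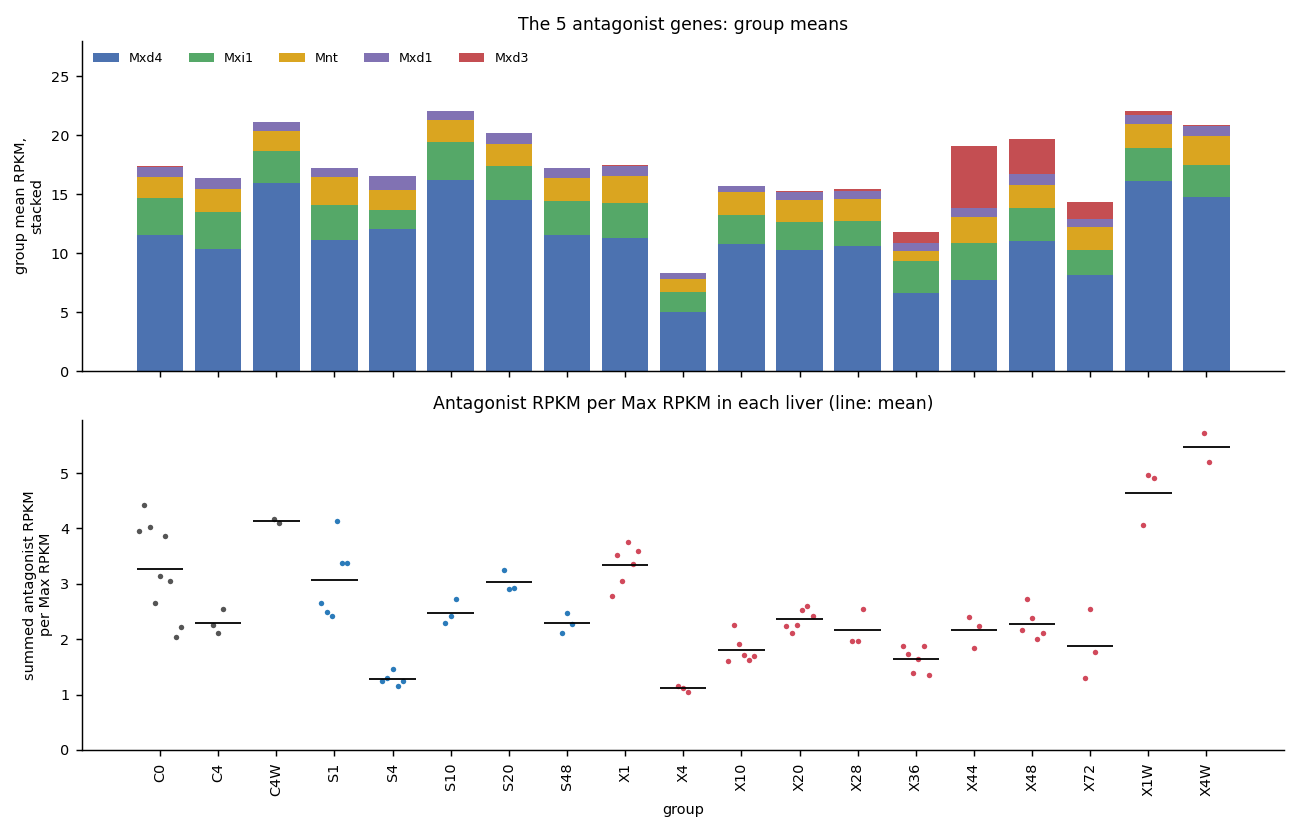
Top, group means of RPKM of the 5 antagonist genes, stacked; bottom, summed antagonist RPKM per RPKM of Max in each liver, with a line at the group mean. The X4 stack is the lowest, Mxd3 appears from X36 to X72, and the ratio is lowest in S4 and X4 (1.05 to 1.47).

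In the order of group means, neighbouring groups overlapped for all 18 pairs in Myc, Mxd1 and Mxd3, and for 17 of 18 in Mycn, Mnt, Mxd4 and Mxi1. The steps without overlap in these 4 were X1 above X4 for Mycn, C4W above X4 for Mnt, C4W above X4W for Mxd4 and X72 above X4 for Mxi1. Across the 19 group means, which share their normalization, the genes most like each member by Pearson correlation among 5993 candidates were Espl1, Psrc1 and Troap for Mxd3 (0.995, 0.995 and 0.994), 2410004B18Rik, Pelo and Jmjd6 for Max (0.918, 0.916 and 0.907), and 1300018I17Rik, Tpst1 and Spsb2 for Mxi1 (0.898, 0.886 and 0.878). For Mxd4 they were Wdr81, AU022252 and Orai3 (0.879, 0.837 and 0.80), for Myc Agpat9, Enc1 and Adamts1 (0.855, 0.845 and 0.829), and for Mycn Tfeb, Samd1 and Plekhh3 (0.835, 0.833 and 0.828). Mxd1 had Mylip, Ogfrl1 and Rnf167 (0.786, 0.749 and 0.658) and Mnt had Ccng2, 4833442J19Rik and Hps4 (0.765, 0.702 and 0.681). Espl1 and Troap are known from mitosis, where separase, the product of Espl1, frees the sister chromatids.

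Among 33 genes listed as responsive to MYC, most of them for ribosome production, polyamines and metabolism, 21 were higher and none lower in X10 against C0 (median change 0.68, against 0.07 for all genes, of which 21.2% were higher). The 3 largest rises were those of Ldha (2.09), Rrp12 (1.62) and Nop58 (1.59), for lactate dehydrogenase, ribosomal RNA processing and a nucleolar ribonucleoprotein. At 4 h 17 were higher and 3 lower in S4 against C4 (median 0.51, against -0.22), and 12 higher and 4 lower in X4 against C4 (median 0.26, against -0.26), comparisons that share the C4 livers. Of all genes 12.2% were higher and 31.0% lower in S4, and 11.7% higher and 33.9% lower in X4. The largest rise was that of Nop58 in either group (2.33 in S4 and 2.06 in X4), and Cdk4 fell by 0.59 and 0.83.

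Directly between the operations, 3 of the 33 were lower in X4 than in S4, namely Srm, which makes spermidine (-1.27, limma adjusted p = 0.000348), Cad, the first enzyme of pyrimidine synthesis (-0.93, limma adjusted p = 0.00432), and Nop16 (-0.55, limma adjusted p = 0.000664). None was higher. Of all genes 5.48% were lower and 3.16% higher. In X10 against S10, X20 against S20 and X48 against S48, 9, 9 and 14 were higher and none lower, with medians of 0.29, 0.36 and 0.42 against -0.0049, 0.07 and 0.27 for all genes, of which 3.40%, 4.49% and 24.5% were higher. In X44 26 of 33 were higher than in C0 (median 0.70, against 0.23, with 30.8% of all genes higher), led by Mcm4 (2.94), Nop58 (1.94) and Ldha (1.81).

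Of 15 listed corepressors that MXD and MNT proteins recruit, 4 were lower in X4 than in S4, as were 5.48% of all genes, and none higher, led by Ing1 (-0.89), Sap30 (-0.59) and Ing2 (-0.58), all subunits of the SIN3 complex, with limma adjusted p of 2.3e-08, 0.0262 and 0.00458, and a list median of -0.23 against -0.04 for all genes. Against C4, 7 of 15 were lower in X4 (median -0.49, against -0.26), where 33.9% of all genes were lower, and 4 of 15 in S4 (median -0.30, against -0.22), a smaller share than the 31.0% of all genes. Ing2 led in both (-2.19 and -1.61). In X48 against S48, 6 of 15 were higher and none lower (median 0.37, against 0.27, with 24.5% of all genes higher), with Sap30 (1.09), Rbbp7 (1.00) and Ing1 (0.92) in front.

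Of 16 cofactors and turnover factors of MYC, 6 were higher in X48 than in S48 and none lower (median 0.44, against 0.27 for all genes, of which 24.5% were higher), led by Aurka (5.49), Ruvbl2 (1.14) and Skp2 (1.12); Aurka is a mitotic kinase and Skp2 a ubiquitin ligase subunit of the cell cycle. In the extended network of Mycl1, Mlx, Mlxip, Mlxipl and Mga, Mlxipl, the glucose-responsive factor ChREBP, was lower in X10 than in S10 by 1.30 (a change of -1.30, limma adjusted p = 0.000784) and in X20 than in S20 (-0.90, limma adjusted p = 0.0222). In each of these, 1 of 5 was lower and none higher, where 3.62% and 2.61% of all genes were lower. Against C4, Mlx, which partners Mlxipl, was higher in S4 (0.77) and X4 (0.59), and Mlxipl was lower in both (-1.97 and -1.86). In each, 1 of 5 was higher and 2 lower. Of all genes 12.2% were higher and 31.0% lower in S4, and 11.7% higher and 33.9% lower in X4.

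Of 6 genes listed as repressed by MYC, 5 were tested. In X4 against C4 Gas1 (-3.84) and Ndrg2 (-0.65) were lower and Cdkn1a, for the cell-cycle inhibitor p21, was higher (6.55), and S4 gave the same directions (-3.01, -0.73 and 5.22). In each, 2 of 5 were lower and 1 higher. Of all genes 33.9% were lower and 11.7% higher in X4, and 31.0% lower and 12.2% higher in S4. In X10 against C0 4 of 5 were lower and none higher, where 15.2% of all genes were lower, led by Ndrg1 (-2.90), Gas1 (-1.56) and Gadd45a (-1.29).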

How the data were processed

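Poly(A)-selected RNA of individual livers was sequenced as stranded 100-base single reads, without spike-ins. According to the study's methods and the processing notes, the authors aligned reads with TopHat2 2.0.13 and Bowtie2 to mm9, handled them with SAMtools 0.1.19, and counted them per Ensembl gene by strand with featureCounts, splitting multi-mapping reads. The deposited values are log2 RPKM, on which every comparison depends through the library total. Of 84 value columns, 80 matched labelled samples. The other 4, headed as S4, matched none and were not used, and 7 labelled samples were not analysed here.

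Values were converted to RPKM, and log2(RPKM + 0.25) was fitted with limma 3.58.1 (R 4.3.3) with a trended prior variance and no covariate, for genes above -1.5 log2 RPKM in at least 1 library; the test was also run on simulated data. Depth was estimated from the smallest steps of the values and GENCODE vM1 exon lengths. Alternatives covered the pseudocount, scaling, filter, prior variance, replicate number, control livers and each library left out. All 8 members were reported; each list contributed counts, with at most 3 rises and 3 falls by name, and each member the 3 genes most like it. The members and lists were chosen with earlier results of these data known. Livers came from separate mice and were collected in 3 periods. The study gives the periods by group, and the labels do not give them by replicate, so period was not a term of the fit.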

Additional observations from a re-analysis of the deposited data

Results flagged for a closer look

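Single livers stood far from the rest of their group in 8 of 64 sets of a member and a group of 4 to 10 livers. They were flagged by the gap to the nearest liver as a share of the group's range. The rate of about 1 in 20 by chance assumes normally distributed values, which RPKM near 0 are not. Myc was at 6.12 RPKM in C0 replicate 7, with the next liver at 2.44, and at 3.69 RPKM in X20 replicate 3, with the next at 1.80. Mycn was at 0.225 RPKM in S1 replicate 5, with the next at 0.0861. Mxd3 was at 0.208 RPKM in C0 replicate 2 (next 0.0645), 0.0529 in S4 replicate 5 (next 0.0135), 0.0184 in X10 replicate 6 (the others at 0) and 2.65 in X36 replicate 1 (next 0.744); in S4 and X10 these values are at most 3 reads. Mxi1 was at 3.2 RPKM in X36 replicate 2, with the next at 2.63.

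The difference between PH and sham livers changed over the 5 times for 4 members by the limma F test, with adjusted p of 1.75e-05 for Max, 5.54e-06 for Mxd1, 2.11e-16 for Mxd3 and 0.000112 for Mxd4. For Max, Mxd1 and Mxd4 the largest difference was the lower level in X4 at 4 h, and for Mxd3 the higher level in X48 at 48 h.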

How the results depend on the processing

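The totals of called members (5 of 40 for PH against sham, 5 of 40 for sham against unoperated, 25 of 88 for PH against unoperated, 0 of 8 for C4 against C0 and 4 of 8 for the change over time) stayed within 1.5 times in 50 of 55 alternatives. With a pseudocount of 1 RPKM sham against unoperated gave 3 and PH against unoperated 14. With only genes of mean log2 RPKM above 0, which leaves Mycn, Mxd1 and Mxd3 out, PH against sham gave 3, PH against unoperated 14 and the change over time 2. Without 1 library the totals were 4 to 6, 4 to 6, 23 to 28, 0 and 4 to 5. Refits of single calls numbered 491. They covered the other alternatives and, for each call, the fits without 1 library that gave the highest and the lowest adjusted p. Of these 491, 435 kept the call, 56 lost it and none reversed.

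The replicate numbers did not pair the livers, since same-numbered livers of PH and sham groups had correlations of their deviations from -0.186 to 0.273. With the replicate block the totals were 6, 6, 24, 0 and 4. Mxd3 in X28 against C0 lost its call (0.40), as did Mnt in X4 against C4 (-0.49) and Mxd4 in S10 against C0 (0.34). Mxd1 in X10 against S10 gained a call (-0.58). Against C0, Mycn in S1 (-0.57), Max in S48 (0.53) and Myc in X28 (1.04) also gained calls. Counting reads limits Mycn and Mxd3, whose low values are a few reads a library, and 3 livers or fewer limit many groups.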
